A study of Drosophila melanogaster with 3 samples.

Results

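The 95 genes described here encode structural proteins of the Drosophila melanogaster cuticle and were taken by symbol from the 13968 protein-coding genes annotated on the chromosome arms. They carry 70 symbols that start with Cpr and a number, 15 that start with Lcp, 7 that start with Ccp84A and 3 that start with Edg. In wandering larvae of the third instar that carried eGFP-tagged Broad, the authors' optimal list of peaks had no summit within 1 kb of a transcription start site (TSS) of any of these 95 genes. In the authors' longer pooled list, whose head is the optimal list, 21 of the 95 had a region at a TSS. A few of those 21, with Cpr72Eb and Cpr62Ba in front, had a region in every replicate, and most of the 95 had none or had one in a single replicate.

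The cuticle is the chitin and protein exoskeleton that the epidermis secretes anew for each larval stage, for the pupa and for the adult. Most of these proteins belong to the CPR family, whose members bind chitin through a conserved region called the Rebers and Riddiford consensus, and many of their genes lie in tandem clusters. Pulses of the steroid hormone ecdysone time the expression of cuticle genes, and Broad is a family of zinc finger transcription factors that ecdysone induces early and that the larva needs to enter the pupal programme.

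The samples were 3 biological replicates, numbered 2, 3 and 4, of 1 group: whole wandering larvae, both sexes together, of a transgenic line in which GFP was fused to the C terminus of the Broad form br-RE. Chromatin was precipitated with an antibody against GFP and sequenced (ChIP-seq), and there was no untagged or other group to set against it. The promoter of the tagged copy and the zinc fingers of br-RE are not given in the labels. Each replicate has a list of 30000 regions that reaches down to background strength, the pooled list holds 27389 regions, and the optimal list equals the first 2533 regions of the pooled list by rank. A gene was counted in a list when a summit of the list lay within 1 kb of any of its TSSs, and rank 1 is the region with the highest authors' signal in its list. In whole larvae, strong binding in few cells and weak binding in many cannot be told apart, and epidermis was not separated from other tissue. At the tagged gene itself, br, a region of rank 1212 in the optimal list lay at a TSS, with one of rank 317 in replicate 2 and none in replicates 3 and 4.

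The sequences around 4 of the pooled summits at cuticle protein genes are printed because 3 of them were matched in every replicate and the fourth held a word known to be bound by Broad. Each window reaches 100 bases to either side of the summit on the plus strand, read 5′ to 3′ from RefSeq's dm6 genome. Capitals mark words on either strand that are cores of known Broad binding sequences, CTATTT for the zinc finger form Z2, AAACTA for the form Z3 and GTAAACA for the form Z4. No word for any other zinc finger form of Broad was searched.
Cpr72Eb at chr3L:16364304-16364504: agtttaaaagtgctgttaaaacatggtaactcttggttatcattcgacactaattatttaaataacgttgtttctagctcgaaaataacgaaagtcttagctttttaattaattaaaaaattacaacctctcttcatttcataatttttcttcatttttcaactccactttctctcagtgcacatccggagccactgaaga
Cpr62Ba at chr3L:1829584-1829784: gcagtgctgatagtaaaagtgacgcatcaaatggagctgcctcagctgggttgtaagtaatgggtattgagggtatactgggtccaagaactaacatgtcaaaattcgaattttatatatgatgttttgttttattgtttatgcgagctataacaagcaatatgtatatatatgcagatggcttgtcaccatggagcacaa
Cpr12A at chrX:13543239-13543439: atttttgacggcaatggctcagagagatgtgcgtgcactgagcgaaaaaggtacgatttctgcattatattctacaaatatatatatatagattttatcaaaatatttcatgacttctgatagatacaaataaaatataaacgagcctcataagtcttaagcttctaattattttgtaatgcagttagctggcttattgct
Cpr35B at chr2L:14426013-14426213: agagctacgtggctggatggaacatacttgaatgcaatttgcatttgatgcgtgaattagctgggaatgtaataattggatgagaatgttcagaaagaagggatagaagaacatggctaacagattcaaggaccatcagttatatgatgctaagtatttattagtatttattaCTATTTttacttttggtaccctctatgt
The windows at Cpr72Eb, Cpr62Ba and Cpr12A hold none of these words, and the window at Cpr35B holds CTATTT near its right end.

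A further set of sequences shows the start of transcription in 5 cuticle protein genes that had no region in the pooled list. Each runs from 60 bases before the TSS to 40 bases from it on the strand of the gene, from the same dm6 sequence, and capitals mark the word TATAAA, the core of the TATA box.
Lcp65Ab1 at chr3L:6149488-6149587, plus strand: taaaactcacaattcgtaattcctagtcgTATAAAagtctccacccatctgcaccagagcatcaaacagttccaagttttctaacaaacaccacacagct
Lcp65Ab2 at chr3L:6146614-6146713, plus strand: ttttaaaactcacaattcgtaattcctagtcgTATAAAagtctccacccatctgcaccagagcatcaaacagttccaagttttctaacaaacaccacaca
Edg78E at chr3L:21297764-21297863, minus strand: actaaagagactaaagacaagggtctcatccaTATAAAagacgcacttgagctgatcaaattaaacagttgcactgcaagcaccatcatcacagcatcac
Edg84A at chr3R:6684385-6684484, plus strand: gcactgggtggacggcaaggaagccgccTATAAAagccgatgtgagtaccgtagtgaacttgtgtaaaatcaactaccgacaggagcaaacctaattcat
Ccp84Aa at chr3R:6704024-6704123, plus strand: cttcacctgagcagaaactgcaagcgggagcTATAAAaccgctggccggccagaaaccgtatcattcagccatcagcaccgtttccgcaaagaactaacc
Lcp65Ab1 and Lcp65Ab2 encode near-identical larval cuticle proteins. Edg78E and Edg84A are ecdysone-dependent genes that encode cuticle proteins of the prepupa, and Ccp84Aa belongs to the cuticle gene cluster at 84A. The word starts 31 bases before the TSS in Lcp65Ab1, 28 bases before it in Lcp65Ab2 and Edg78E, 32 in Edg84A and 29 in Ccp84Aa. All 5 hold the word, so they do not stand for all cuticle protein genes without a pooled region. Of the 95 genes, 48 have it wholly within 40 to 20 bases before the TSS. A pooled region lay at 10 of those 48 and at 11 of the 47 others, against 54.7% of all genes.

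Cuticle protein genes had a lower share with a Broad region at a TSS than protein-coding genes at large in the optimal and pooled lists and in replicates 2 and 3, and a share close to that of all genes in replicate 4. Below the optimal list a region can be of background strength, so these are counts of listed regions and not of bound genes. In the optimal list 0 of the 95 had one, against 13.5% of all protein-coding genes. In the pooled list 21 of the 95 (22.1%) had one, against 54.7% of all genes. The count was 13 (13.7%) in replicate 2 against 59.1% of all genes, and 33 (34.7%) in replicate 3 against 59.1% of all genes. It was 42 (44.2%) in replicate 4 against 46.5% of all genes, which is near the background. Over the replicates the share was 30.9% ± 15.6 of cuticle protein genes and 54.9% ± 7.25 of all genes (SD, n = 3 each). The shares of the 3 replicates did not overlap between cuticle protein genes and all genes, but the gap in replicate 4 was small beside the spread between replicates. The highest signal in replicate 4 was 558.5, against 4485 in replicate 2 and 1365 in replicate 3. The median signals of the lists were closer, 11.5 in replicate 4, 14.1 in replicate 2 and 13.9 in replicate 3. Signals rank regions within 1 list, so these values are a rough guide. In replicate 4 the deposited −log10 q-value of regions at cuticle protein genes had a median of 0.0712 and a highest value of 0.999. The median of the whole list was 0.0725 in replicate 4, 1.01 in replicate 2 and 0.536 in replicate 3. In replicates 2 and 3 the median at cuticle protein genes was 0.494 and 0.429. The part of these lower values in the share of replicate 4 was not tested.

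**Figure D1:**
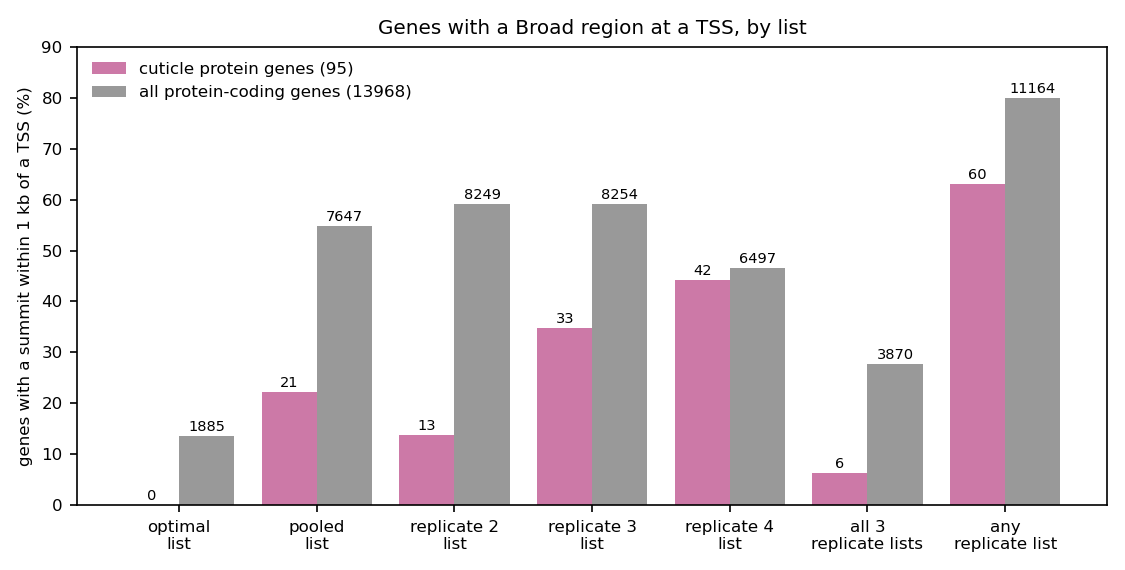
Share of genes with a summit within 1 kb of a TSS (%) in each list, for the 95 cuticle protein genes (left bars) and all 13968 protein-coding genes (right bars), with the number of genes above each bar. The optimal list has 0 cuticle protein genes, and in replicate 4 the bars of 42 and 6497 genes reach nearly the same height.

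Regions present in every replicate were rarer. A region in all 3 replicate lists was present at 6 of the 95 cuticle protein genes (6.32%), against 27.7% of all genes. These were Cpr72Eb, Cpr62Ba, Cpr73D, Cpr51A, Cpr12A and Lcp3. A further 16 had one in 2 replicate lists, 38 in 1 and 35 in none, so that 60 of the 95 (63.2%) had a region in some replicate, against 79.9% of all genes. Of the 35, 34 also lacked a pooled region. The strongest 2533 regions of each replicate, as many as the optimal list holds, are called its top regions here. Top regions lay at none of the cuticle protein genes in replicate 2, against 11.3% of all genes, and at none in replicate 3, against 16.0% of all genes. In replicate 4 they lay at 2 of the 95, Cpr62Ba at rank 1832 and Lcp1 at rank 2394, against 12.6% of all genes. Over the replicates this gave 0.702% ± 1.22 of cuticle protein genes and 13.3% ± 2.42 of all genes (SD, n = 3 each).

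Genes with several TSSs have more chances of a summit within 1 kb. Of the cuticle protein genes 85 had 1 annotated TSS and 10 had 2. Among genes with 1 TSS, a pooled region was present at 17 of 85 cuticle protein genes, against 47.3% of all such genes.

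The regions at cuticle protein genes were weaker and lay farther from the TSS than promoter regions at large. The 24 pooled regions had an authors' signal of 21.6 to 73.9 with a median of 25.9, against a median of 38.7 for all pooled regions at protein-coding TSSs, and the weakest optimal peak had 88.3. Their deposited −log10 q-values ran from 0.036 to 2.25 with a median of 0.141, where 2.66 was the lowest in the optimal list. The highest were 2.25 at Cpr72Eb, 2.23 at Cpr62Ba and 1.56 at Cpr73D, and the next gene, Cpr51A, had 0.956. Most of the regions are thus not significant calls by their own q-value. The best rank of the 21 genes ran from 3494 to 25376 with a median of 12920, against a median of 6190 over all genes with a pooled region. The best rank lay in the upper 50% of the pooled list for 11 of the 21, against 76.8% of all genes with a region. In the replicates it lay in the upper 50% for 4 of 13 in replicate 2, against 76.5% of all genes with a region, for 12 of 33 in replicate 3, against 77.3%, and for 24 of 42 in replicate 4, against 70.2%. The pooled summits lay at a median of 505 bp from the nearest TSS of a cuticle protein gene. All promoter regions lay at a median of 219 bp from the nearest TSS of any protein-coding gene, a slightly different measure. By the same measures 3 of the 24 (12.5%) lay within 200 bp, against 47.5%. Of the 24 summits 14 were upstream and 10 downstream of the TSS. The summit shared by Lcp65Ag3 and Cpr65Au was counted as upstream, 744 bp from Lcp65Ag3, though it lay 376 bp downstream of the nearer TSS, that of Cpr65Au. By annotation 14 were intergenic, 5 were in introns, 2 in coding exons, 2 in 3′ UTRs and 1 in a 5′ UTR. The nearest protein-coding TSS was that of a cuticle protein gene for 23 of the 24. At the edge of the 1 kb limit, the summit at Cpr47Ec lay 975 bp from its TSS, and the nearest one outside lay 1060 bp from the TSS of Cpr92F.

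**Figure D2:**
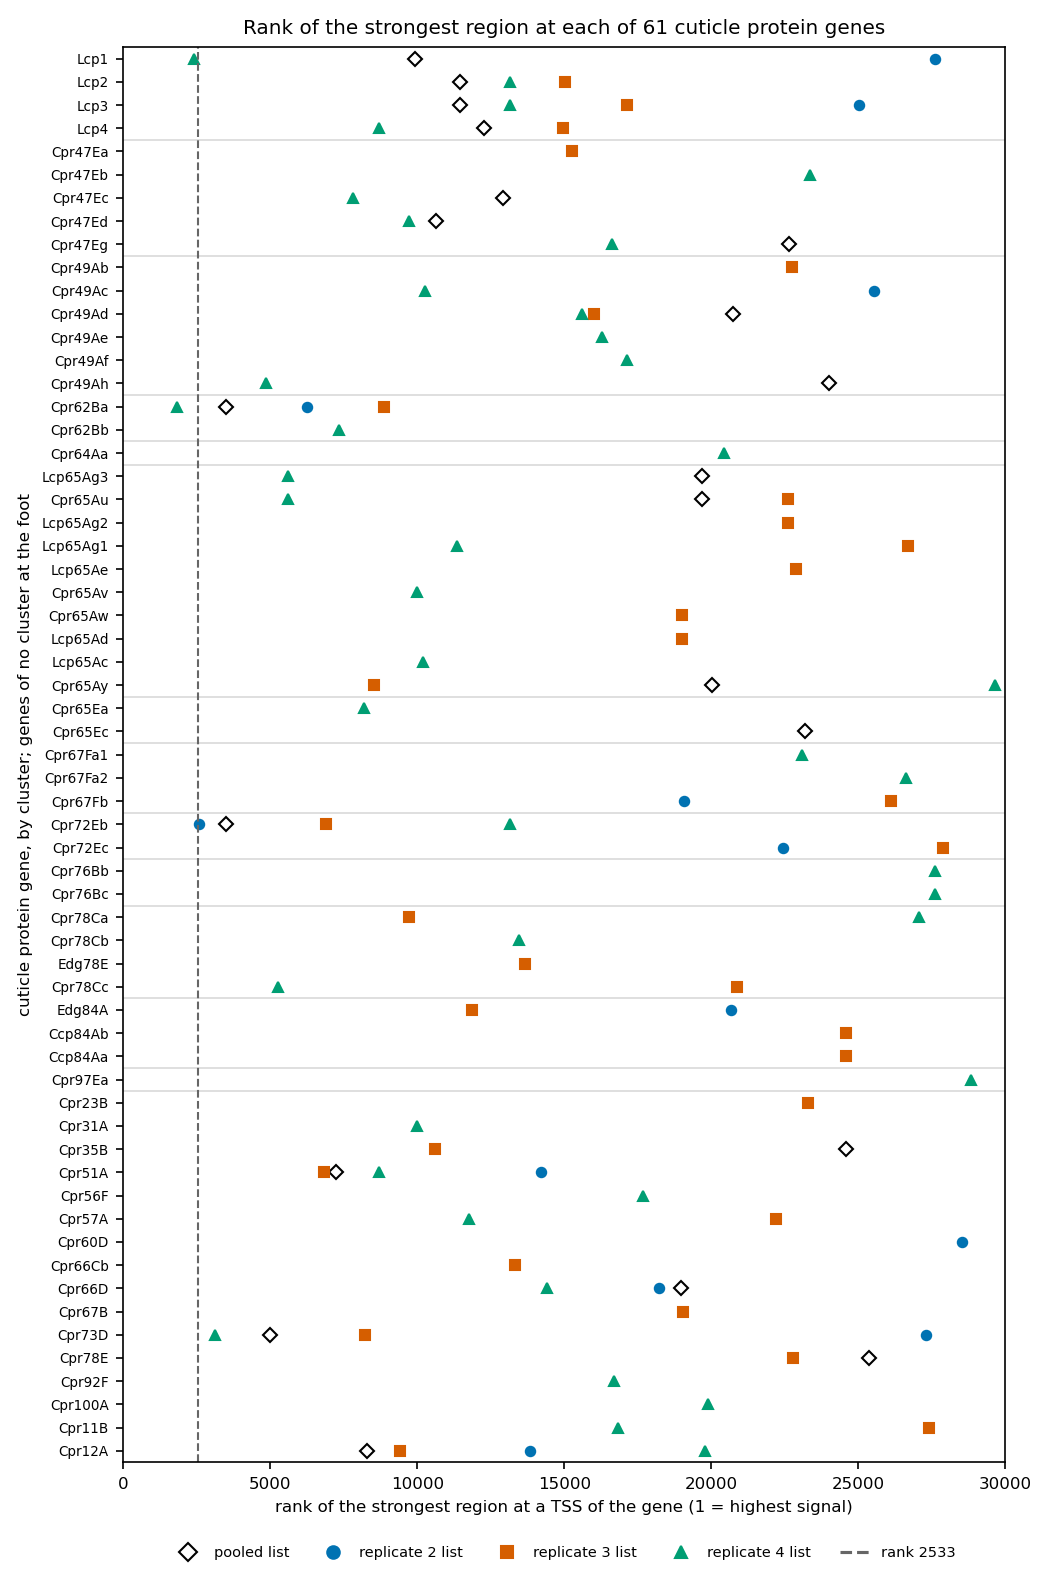
Rank of the strongest region at a TSS (1 is the highest signal) for each of the 61 cuticle protein genes with a region in any list, in rows by cluster, for the pooled list (open diamonds), replicate 2 (circles), replicate 3 (squares) and replicate 4 (triangles); the dashed line marks rank 2533. The replicate 4 ranks of Lcp1 and Cpr62Ba are the ones left of the line, and the replicate 2 rank of Cpr72Eb, 2584, lies just right of it.

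Cpr72Eb, a CPR family gene in the cluster at 72E, had the strongest pooled region among the cuticle protein genes. The region, at chr3L:16364202-16364605 in dm6, had its summit 495 bp upstream of the TSS in intergenic sequence, with a pooled signal of 73.9 at rank 3494. Within 200 bp of that summit lay a region of rank 2584 in replicate 2, one of rank 6895 in replicate 3 and one of rank 13154 in replicate 4. In replicate 2 its signal of 43.8 was just under that of the weakest top region, 44.2.

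Cpr62Ba, a CPR family gene with 2 annotated TSSs in the cluster at 62B, came next at rank 3504 with a signal of 73.8 (best rank 18928 when summits had to lie within 500 bp or only its outer TSS was used). The region lay at chr3L:1829482-1829885, in an intron of the longer transcript and 742 bp upstream of the inner TSS. Its rank was 6251 in replicate 2, 8874 in replicate 3 and 1832 in replicate 4. The order of the pair therefore differed between replicates, with Cpr72Eb ahead in replicates 2 and 3 and Cpr62Ba ahead in replicate 4. Another pooled region, of rank 18928, lay 17 bp upstream of the outer TSS of Cpr62Ba and was matched within 200 bp in replicate 3 alone.

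Cpr12A, Cpr51A and Cpr73D, also CPR family genes, were the others whose pooled region was matched within 200 bp in all 3 replicates. The region at Cpr12A, chrX:13543137-13543540, had its summit 304 bp upstream of the TSS at pooled rank 8299, and the regions of replicates 2, 3 and 4 there had ranks of 13837, 9408 and 19780. At Cpr51A, on arm 2R, the summit lay 230 bp downstream of the TSS, at chr2R:14514779-14515182, and fell in the 3′ UTR of an overlapping gene, CG30197. Its pooled rank was 7248, with 14211 in replicate 2, 6838 in replicate 3 and 8697 in replicate 4. At Cpr73D the region of pooled rank 5001, chr3L:16956752-16957155, had ranks of 27307, 8216 and 3130 in replicates 2, 3 and 4. Its summit lay 735 bp downstream of a TSS of Cpr73D but 485 bp from a TSS of Ogdh, which encodes oxoglutarate dehydrogenase, so it may belong to either gene. In all, 5 of the 24 pooled regions (20.8%) were matched in 3 replicates, 6 in 2, 10 in 1 and 3 in none. Among the promoter regions of all genes below the optimal list, 15.3% were matched in all 3. From rank 3494 on, the rank of the strongest of the 24, it was 12.9%. The support of replicate 4 was weak at some of the 5, with a best −log10 q-value of 0.0750 at Cpr72Eb, 0.0673 at Cpr12A and 0.111 at Cpr51A. It was 0.415 at Cpr73D and 0.999 at Cpr62Ba.

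The larval cuticle genes Lcp1 to Lcp4, which encode abundant cuticle proteins of the third instar, were the only cluster of the 12 with a pooled region at every gene. Over all genes 54.7% had a pooled region, and a cluster of 4 genes is too small to set beside that share. The 4 genes lie within 8.38 kb on arm 2R, at chr2R:8430115-8438495. The pooled rank was 9935 at Lcp1, 11462 at Lcp2 and Lcp3, which share a region between their diverging starts, and 12261 at Lcp4. At Lcp1 the summit lay 759 bp downstream of the TSS, in the 3′ UTR, and the best rank was 27599 in replicate 2 and 2394 in replicate 4, with no region in replicate 3. At Lcp2 there was no region in replicate 2, and the best rank was 15027 in replicate 3 and 13151 in replicate 4. Lcp3 had a region in every replicate, of rank 25013, 17127 and 13151 in replicates 2, 3 and 4. Relative to a TSS, its summit lay at 460 bp in replicate 2, at −321 bp in replicate 3 and at −334 bp in replicate 4, where negative positions are upstream. At Lcp4 the rank was 14963 in replicate 3 and 8683 in replicate 4, with none in replicate 2. The replicates therefore gave 2, 3 and 4 of the 4 genes in replicates 2, 3 and 4, against 59.1%, 59.1% and 46.5% of all genes. The nearest optimal summit lay 24123 bp beyond the cluster, by the TSS of Mal-A5. Lcp9, a larval cuticle gene alone on the same arm, had no region in any list.

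The 65A cluster on 3L is the largest, with 17 cuticle protein genes within 31.2 kb, 10 Lcp65A and 7 Cpr65A. A pooled region lay at 3 of the 17, against 54.7% of all genes. These were Lcp65Ag3 and Cpr65Au, which share the region of rank 19680, and Cpr65Ay at rank 20016. No region of replicate 2 lay at any of the 17, while 7 had one in replicate 3 and 6 in replicate 4, against 59.1%, 59.1% and 46.5% of all genes. No replicate had a region at 7 of the 17, where 79.9% of all genes had one in some replicate. The stretch from Lcp65Ag2 to Lcp65Aa, 13 genes over 18.8 kb, held no summit of the pooled list and none of replicate 2, and replicates 3 and 4 had 3 summits each there. The 6.27 kb between Lcp65Aa and Cpr65Ay, which holds the adult cuticle gene Acp65Aa and CG13297, had 3 pooled summits, and 4, 6 and 2 summits in replicates 2, 3 and 4. The strongest of them, at rank 8397 (chr3L:6154484-6154887) and rank 11519 (chr3L:6155262-6155665), were matched in every replicate and lay 3382 and 3166 bp from the nearest TSS of a cuticle protein gene by symbol. Both stretches were picked after the map was seen.

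Some copies in the 65A cluster are nearly identical in sequence. Of the overlapping 36-base words within 1 kb of the TSS, 72.1% at Lcp65Ab1, 71.5% at Lcp65Ab2, 63.6% at Cpr65Ax1, 63.2% at Cpr65Ax2 and 40.5% at Lcp65Aa occur elsewhere on the arms, and none of these 5 genes had a region in any list. Over the 95 genes the median was 0%, and 10 genes had more than 10%. A pooled region lay at 1 of those 10 and at 20 of the other 85 (23.5%), against 54.7% of all genes. No source used here gives the read length or how reads with several matches were treated in the lists, and the part of repeated sequence in the missing regions of these 5 genes was not tested.

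**Figure D3:**
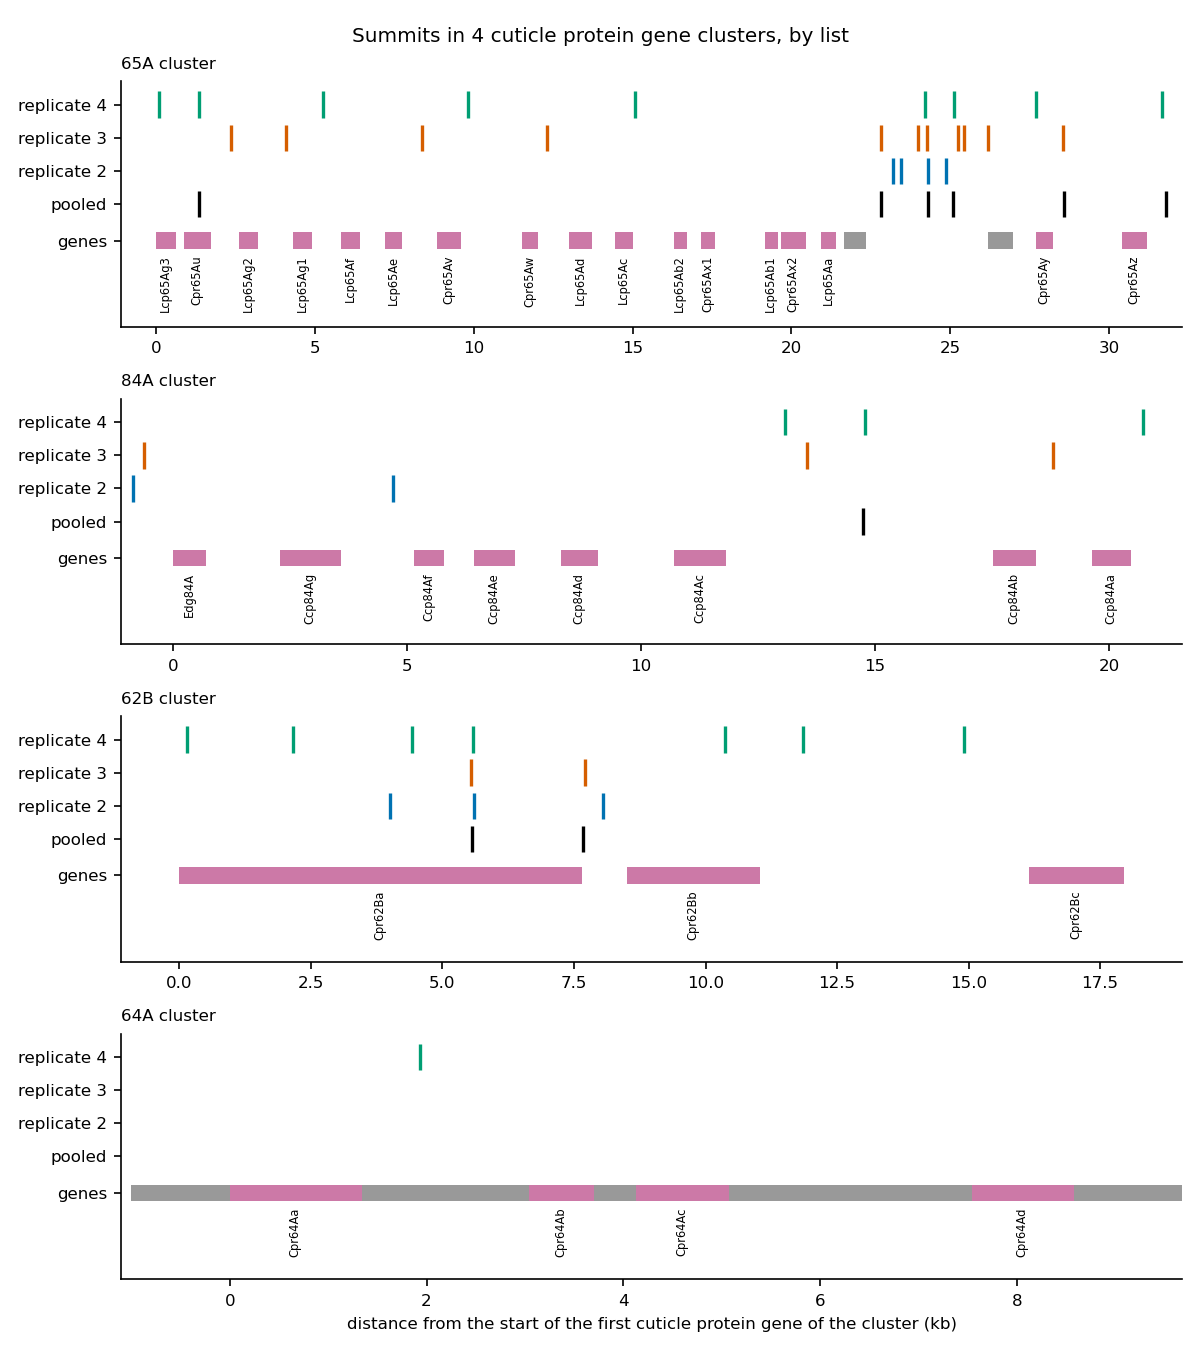
Summits of the pooled and replicate lists (vertical ticks, 1 row per list) in 4 clusters, with cuticle protein genes in pink and other protein-coding genes in grey, against distance from the start of the first cuticle protein gene (kb). The 65A map shows summits of every list between Lcp65Aa and Cpr65Ay, the 62B map a summit shared by all lists inside Cpr62Ba, and the 64A map 1 summit of replicate 4.

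The ecdysone-dependent genes Edg78E, Edg84A and Edg91 and the Ccp84A genes had no pooled region at a TSS. Edg78E, in the Cpr78C cluster, had a region of rank 13670 in replicate 3 alone, 738 bp downstream of the TSS. Edg84A had a region of rank 20664 in replicate 2, 854 bp upstream of the TSS, and one of rank 11879 in replicate 3, 621 bp upstream, and their summits were too far apart to be matched within 200 bp. Edg91, a single gene on 3R, had no region in any list. In the 84A cluster, which joins Edg84A and 7 Ccp84A genes within 20.5 kb, Ccp84Aa and Ccp84Ab shared a region of rank 24594 in replicate 3, and the other 5 Ccp84A genes had none. The pooled list had 1 summit in the cluster, of rank 17362, 2926 bp from the TSS of Ccp84Ac, and the nearest optimal summit lay 58179 bp away, by Ama.

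In the remaining clusters, the regions at Cpr62Ba and Cpr72Eb described above were the ones at a TSS that all replicates shared. On 3L, the cluster at 64A had a region of rank 20441 in replicate 4 at Cpr64Aa and no summit of the pooled list, replicate 2 or replicate 3 within its span plus 1 kb. At 67F all 3 genes had a region in some replicate, where 79.9% of all genes had one, with best ranks from 19077 to 26617, and none in the pooled list. At 76B the nearest pooled summit, of rank 8440, lay 1592 bp from the TSS of Cpr76Ba. There 2 of the 4 genes had a region in replicate 4 alone, where 46.5% of all genes had one. At Cpr78C each of the 4 genes likewise had a region in replicate 3 or 4, near the 79.9% of all genes with one in some replicate, and none had one in the pooled list. At 65E the pooled region of rank 23198 at Cpr65Ec was matched in no replicate. On 2R, 3 of the 7 genes at 47E had a pooled region, Cpr47Ed at rank 10630, Cpr47Ec at rank 12920 and Cpr47Eg at rank 22653, each matched in replicate 4 alone. At 49A on the same arm, Cpr49Ad at rank 20743 and Cpr49Ah at rank 24015 were 2 of 8. Both counts stand beside 54.7% of all genes. The strongest pooled region in the 49A span, rank 7616, lay in the 3′ UTR of Cpr49Ac, 1710 bp from the nearest TSS of a cuticle protein gene, and was matched in every replicate. Of the pairs, neither gene at 50C had a region in any list, and at 97E Cpr97Ea had one of rank 28821 in replicate 4.

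In the pooled list, clustered genes and the others had nearly the same share. A pooled region lay at 15 of 68 clustered genes (22.1%) and at 6 of 27 genes in pairs or alone (22.2%), against 54.7% of all genes. In replicate 2 the shares were 11.8% of clustered genes and 18.5% of the others, in replicate 3 33.8% and 37.0%, and in replicate 4 45.6% and 40.7%, so their order differed between lists. The 6 others with a pooled region were Cpr73D, Cpr51A, Cpr12A, Cpr66D at rank 18978, Cpr35B at rank 24590 and Cpr78E at rank 25376. The regions at Cpr35B and Cpr78E had signals of 22.0 and 21.6, where the weakest of the whole pooled list had 20.5.

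**Figure D4:**
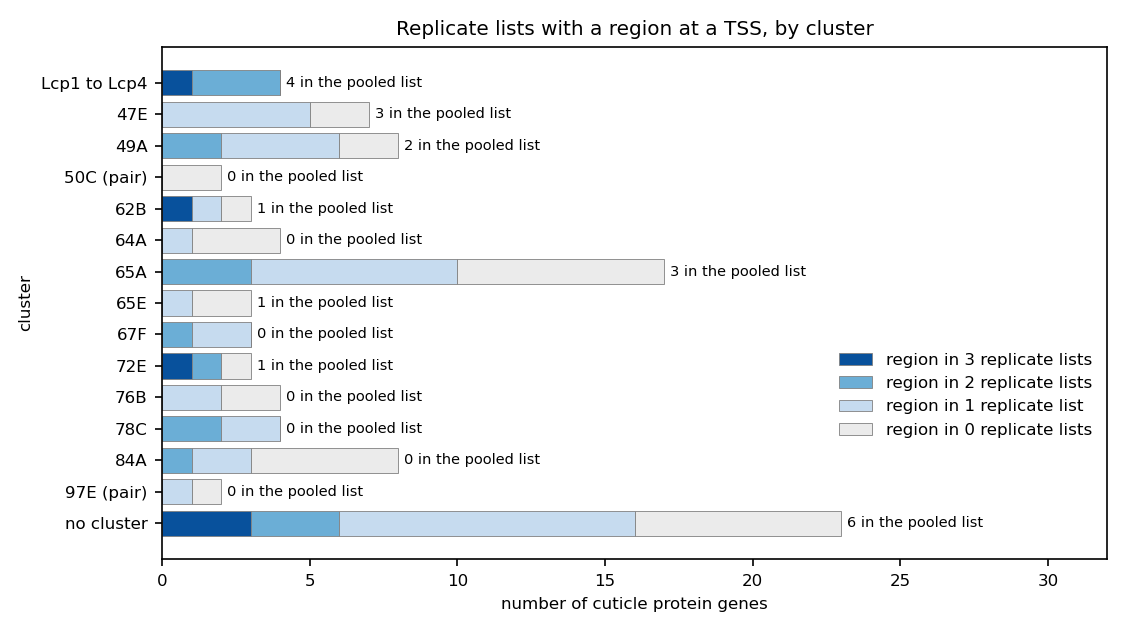
Number of cuticle protein genes in each cluster, in the pairs and outside clusters, shaded by how many of the 3 replicate lists had a region at a TSS, with the number in the pooled list beside each bar. Lcp1 to Lcp4 have no gene without a replicate region, and the 65A cluster has 7 of 17.

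Summits of the optimal list were also counted over gene bodies and whole clusters. No optimal summit lay in the body of a cuticle protein gene or within 1 kb of it, nor in the span plus 1 kb of any cluster. Over the 223 kb of the 12 clusters the pooled list had 14.3 summits per 100 kb, against 19.9 over the arms, and the optimal list had 0, against 1.83. At that density few optimal summits would lie in 223 kb, and part of it is within 1 kb of a TSS. The 0 therefore cannot show an absence beyond the promoters. The replicates gave 9.41 in replicate 2, 20.6 in replicate 3 and 30.5 in replicate 4, against 21.8 over the arms in each, so replicate 4 was above the level of the arms and replicate 2 below it. From the TSS to the nearest optimal summit the median was 30019 bp (2272 to 81751) for cuticle protein genes, against 14439 bp for all genes, and 4 of the 95 (4.21%) had one within 5 kb, against 26.9%. The closest was at Cpr12A, 2272 bp away. By cluster, the nearest optimal summit lay 3384 bp from the Cpr78C span, of rank 52 by the TSS of CG11309, and 4735 bp from the 67F span, of rank 2427 by the TSS of Aps. To the nearest pooled summit the median was 2936 bp for cuticle protein genes and 626 bp for all genes.

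With no account taken of rank, replicate regions at cuticle protein genes were matched to another replicate at a lower share than promoter regions at large in 5 of the 6 pairings by direction. In the other the share was higher. The ranks were unlike, with a median best rank of 20664, 19012 and 13152 at cuticle protein genes in replicates 2, 3 and 4. Over all genes it was 7429, 6024 and 7876. Of the 24 pooled regions at cuticle protein genes, 5 (20.8%) were matched in all 3 replicates. Among all pooled promoter regions below the optimal list the share was 15.3%. It was 12.9% from rank 3494 on, a cut set by the strongest of the 24. Counted by gene, a pooled region matched in all 3 lay at 5.26% of cuticle protein genes, against 19.9% of all genes. Of the 18 regions of replicate 2 at these genes, 5 (27.8%) had a summit of replicate 3 within 200 bp, against 49.5% of all promoter regions of replicate 2, and 7 (38.9%) had a summit of replicate 4, against 27.7%. Of the 37 regions of replicate 3, 5 (13.5%) were matched in replicate 2, against 52.1%, and 7 (18.9%) in replicate 4, against 3486 of 11636. Of the 52 regions of replicate 4, 7 (13.5%) were matched in replicate 2, against 42.6%, and 7 in replicate 3, against 44.5%. By gene, 9 cuticle protein genes had a region in both replicates 2 and 3, a share of 69.2% of the replicate 2 genes and 27.3% of the replicate 3 genes, against 81.9% and 81.8% for all genes. Replicates 2 and 4 also shared 9, which were 69.2% of the replicate 2 genes and 21.4% of the replicate 4 genes, against 53.8% and 68.3% for all genes. Replicates 3 and 4 shared 16, which were 48.5% of the replicate 3 genes and 38.1% of the replicate 4 genes, against 54.7% and 69.5% for all genes. The share of the replicate 2 genes found in replicate 4 was thus the one by-gene value above that of all genes.

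The promoters of cuticle protein genes differed from promoters at large in sequence, which the choice of genes did not use. The word TATAAA lay on the strand of the gene wholly within 40 to 20 bases before the TSS in 48 of the 95 (50.5%), against 7.05% of all protein-coding promoters. It was present in all 3 Edg promoters, in 5 of 7 Ccp84A, 9 of 15 Lcp and 31 of 70 Cpr promoters. By cluster it ranged from 0 of 3 genes at 62B to 3 of 3 at 65E, with 10 of 17 at 65A and 6 of 8 at 84A. These counts depend on the edges of the window. The word starts 23 bases before the TSS in Cpr62Bc and 24 in Lcp65Ag2, so it runs past the window and was not counted. On either strand from 250 bases before to 50 after the TSS, it was found in 73.7% of cuticle protein promoters and 45.8% of all. The DRE core TATCGATA, common in promoters of housekeeping genes, was in 1 of the 95 (1.05%), against 9.36% of all. The Broad words were in fewer cuticle protein promoters than in promoters at large: CTATTT in 14.7% against 27.0%, AAACTA in 23.2% against 27.3% and GTAAACA in 5.26% against 9.19%. The initiator core TCAGT was in 55.8% against 51.5%, GAGAGA in 8.42% against 12.3%, the nuclear receptor word AGGTCA in 4.21% against 5.88%, and CAAGGTCA, which holds AGGTCA and is bound by FTZ-F1, in 1.05% against 0.494%. The median GC content of the same window was 44.0% in cuticle protein genes and 38.0% in all, and its part in the counts of words was not tested.

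**Figure D5:**
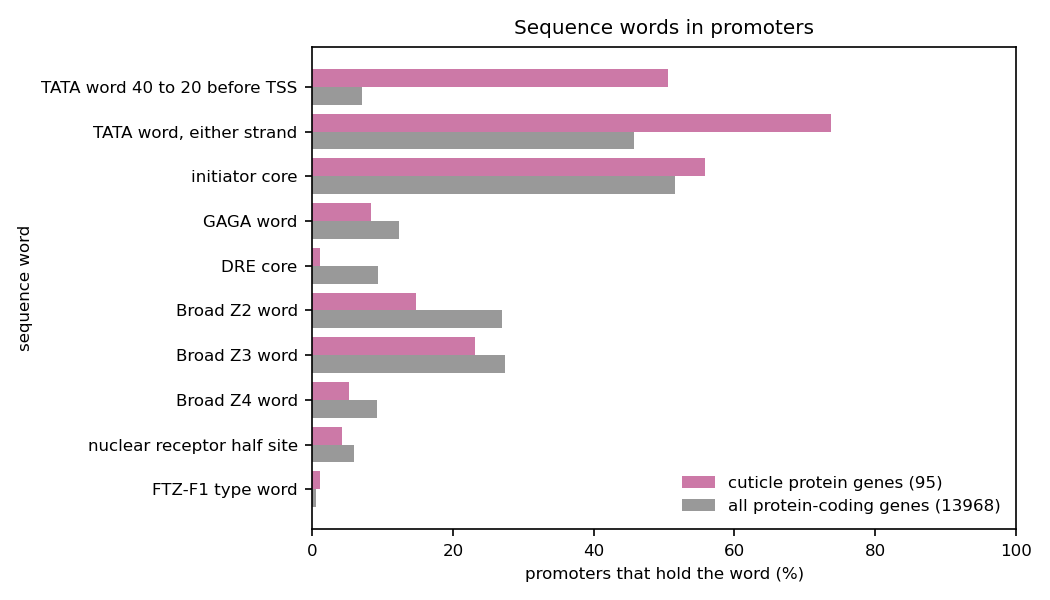
Share of promoters (%) that hold each sequence word, for the 95 cuticle protein genes (upper bars) and all 13968 protein-coding genes (lower bars), from 250 bases before to 50 after the TSS on either strand, and for the top row on the strand of the gene from 40 to 20 bases before the TSS. The TATA word of the top row, 50.5% against 7.05%, is the widest gap, and the Broad words are lower in cuticle protein genes.

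Across all protein-coding genes, those with the TATA word at 40 to 20 bases had a pooled region in 32.3% of cases and those without it in 56.5%, and the optimal list held 3.96% against 14.2%. Among cuticle protein genes, the word did not separate those with a region from those without: 10 of 48 with the word and 11 of 47 without it had a pooled region, against 54.7% of all genes. The 5 genes whose pooled region was matched in every replicate are Cpr72Eb and Cpr51A, with the word in that window, and Cpr62Ba, Cpr73D and Cpr12A, without it there. In Cpr12A the word starts 45 bases before the TSS, outside the window.

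Broad words were also in a smaller share of the summit windows. Within 75 bases of the summit, 0 of the 24 pooled regions at cuticle protein genes held any of the Broad words, against 29.4% of 10626 pooled promoter regions. Within 100 bases it was 3 of 24 (12.5%), each with CTATTT, against 37.6%. The 2 sets were not matched in rank: the 10626 include the optimal peaks and had a median signal of 38.7, against 25.9 for the 24. The part of signal in the shares was not tested. In the replicates, within 75 bases, the words were in 2 of 18 regions of replicate 2 against 26.0%, in 8 of 37 of replicate 3 against 33.0%, and in 8 of 52 of replicate 4 against 28.3%. The median GC content of the windows of 75 bases was 35.1% at cuticle protein genes and 37.1% at all promoter regions. A match is a description of letters, and the absence of one says only that these letters are not in the window. The words stand for the forms Z2, Z3 and Z4 alone, and the labels do not give the zinc fingers of br-RE.

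Other genes linked to the cuticle were counted in broad lists by function, and not every gene in a list acts in the function that names it. Of the factors known to act on cuticle genes, 6 of 14 had an optimal peak, against 13.5% of all genes, and 13 of 14 a pooled region. The 6 were the ecdysone-induced Eip74EF at rank 877, br at 1212, the epidermal factor grh at 1427, and the nuclear receptors Hr3 at 1696, ftz-f1 at 1805 and Hr39 at 2255. Of these, grh alone had a top region in every replicate, while Hr39 had no region in replicate 4 and br none in replicates 3 and 4. The rank in replicate 4 was 29753 at ftz-f1 and 6737 at Hr3, and Eip74EF had rank 7049 in replicate 3. The number of TSSs per gene was not matched to that of all genes. Of the 16 genes listed under chitin breakdown, 2 had an optimal peak, Hexo2, a hexosaminidase, at rank 211, and Cht7, a chitinase, at rank 1181. A pooled region lay at 7 of the 16, among them Idgf6 at rank 6236, Idgf4 at 7473 and Idgf2 at 12185. The Idgf genes in this list encode imaginal disc growth factors. Of the genes listed under chitin synthesis and organisation none of 12 had an optimal peak and 9 had a pooled region. Among them were mmy, which makes the sugar precursor of chitin, at rank 4302, and the chitin synthase kkv at rank 14071. The 9 also include Alas at rank 10926, which encodes an enzyme of haem synthesis. Of the Tweedle family, cuticle proteins outside the CPR family, none of 25 had an optimal peak and 3 had a pooled region, TwdlV at rank 19720, TwdlT at 25022 and TwdlS at 26925. Of 9 peritrophin-like cuticle proteins none had an optimal peak and 4 had a pooled region, with obst-E in front at rank 8773. Of 17 genes listed under other cuticle proteins 1 had an optimal peak, tyn, a zona pellucida protein, at rank 1414. A pooled region lay at 6, among them f at rank 11906, which encodes an actin-bundling protein. These lists are small and lie beside 54.7% of all genes with a pooled region, so they are given as counts alone.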

How the data were processed

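Broad was mapped by ChIP-seq in 3 replicates of whole larvae. The authors deposited a signal and a −log10 q-value for each region, per the file headers and the labels; the signal comes from the peak caller and ranks regions within 1 list. The pooled list was called on the 3 replicates together with a control file, and the optimal list was cut from it by an irreproducible discovery rate threshold, per the deposited readme texts. The aligner, the caller, the normalization and the read depth are named in no source used here, so no interval is printed, and the control library was not analysed here. The dm6 lists were used and the dm3 lists left out. Chromatin had been sheared to 200 to 800 bp, per the labels.

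Genes and TSSs came from Ensembl release 115 (BDGP 6.54), with 18 of 13986 protein-coding genes left out because they lie off the arms. Cuticle protein genes at most 20 kb apart form a cluster (3 or more genes) or a pair, giving 12 clusters with 68 genes, 2 pairs and 23 single genes. Regions were matched when their summits lay within 200 bp. No test was made, since there is 1 group; counts stand beside all genes, and SDs are over replicates. The genes, lists and comparisons were chosen with earlier results of these data known. The genes named are those with a pooled region, those in every replicate list, the Lcp and Edg genes, in each cluster the gene nearest to a pooled summit, and up to 4 genes of each other list; others were named after their values were seen. Of 93 symbols in the other lists, 2 were matched by synonym and all were found. The TATA window, the summit windows, the 36-base words, the restriction to 1 TSS and the 65A stretches were chosen after seeing the data. The cut at rank 3494 was set by the data themselves. The counting was tested on simulated summits. Python 3.11.15, numpy 2.4.6, pandas 2.3.3 and matplotlib 3.10.9 were used.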

Additional observations from a re-analysis of the deposited data

How the results depend on the processing

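No optimal peak lay at a cuticle protein gene under any alternative tried. The 21 genes with a pooled region became 12 with summits within 500 bp of a TSS, 32 within 2000 bp, 35 with the gene body plus 1 kb, 11 in the upper 50% of the list, and 3, 5 and 5 when a summit of every replicate had to lie within 100, 200 or 500 bp; the share of all genes stayed higher each time, such as 47.7% within 500 bp and 14.5%, 19.9% and 23.5% with the 3 distances. The mean over replicate lists, 29.3 genes, was 46.0 within 2000 bp, 16.3 within 500 bp and 13.3 in the upper 50% of each list. With 1 replicate left out it ranged from 23.0 to 37.5. The 16.3 genes within 500 bp were 17.2% of cuticle protein genes, against 46.1% of all genes. The 6 genes in all replicate lists became 4 within 500 bp, 14 within 2000 bp, 13 with the gene body and 3 in the upper 50% of each list. Among genes with 1 TSS (chosen after seeing the data) they were 3. Without replicate 2 they were 16 of the 95, against 32.3% of all genes, and without replicate 3 or 4 they were 9. The mean for top regions, 0.667 genes, ranged from 0 to 1.00 with 1 replicate left out. Using the first TSS of a gene alone, overlap in place of summits, gaps of 50 kb, fewer or more top regions, or promoters of unique sequence alone (chosen after seeing the data) moved none of these counts by more than 1.5 times or, for means, 1 SD. Of the best pooled ranks of the 21 genes, at most 4 changed under any other window that left them a region; that of Cpr62Ba was 18928 in place of 3504 with summits within 500 bp or the first TSS alone, and that of Lcp1 was 23918 in place of 9935 within 500 bp. No paired analysis was possible because there is 1 group. The number of regions per list is fixed by the authors and depth is unknown, so a missing region may be one below the foot of the list.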
